A study of Drosophila melanogaster with 3 samples.

Results

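Cytosolic ribosomal protein genes were taken as every row symbol that begins with RpL or RpS followed by a digit, or with RpLP, which leaves out the mitochondrial ribosomal proteins. The rule found 87 genes among the 10457 symbols counted over 3 libraries, and 84, 86 and 86 of them were listed in replicates 1, 2 and 3. By symbol, 35 belong to the small subunit, 48 to the large subunit and 4 to the stalk of the large subunit (RpLP genes). The samples form 1 group, larval peripheral chemosensory organs of third-instar Drosophila melanogaster, with no treatment and no second group. Fluorescent organs were collected manually, enzymes separated their cells, and these were processed in DisCo, in which a droplet joins a cell to a bead that carries a barcode. The genotype, the driver of the fluorescent label, the number of animals and the meaning of the title suffixes are not given in the sources used here, nor is it stated whether the replicates came from separate animals. A p-value over libraries therefore measures only the spread between these 3 libraries.

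The cytosolic ribosome reads messenger RNA on its small subunit and joins amino acids on its large subunit, and nearly every one of its proteins is present in 1 copy per ribosome. The stalk proteins RpLP1 and RpLP2 are the main exception. The stalk, which also holds RpLP0, recruits the factors that drive elongation. In Drosophila, loss of 1 copy of many of these genes slows larval development and thins the adult bristles, the Minute phenotype, and cells with such a loss are removed when they lie beside normal cells. Several genes exist as duplicates, of which some are known mainly from the germline.

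Counts are whole numbers per gene and barcode. Collapsing of copies to molecules is not stated, so values are counts and not molecules, and exact 95% intervals cover counting error only. Total counts were 508018, 689416 and 369432 in replicates 1, 2 and 3. Barcodes with at least 200 genes were kept, 61, 214 and 231 of them, and no kept barcode was shared between libraries. The libraries stood apart before any ribosomal protein gene was considered. The 14 neuron markers, all of them listed in the files, summed to 151, 7226 and 14328 CPM (counts per 1000000 kept counts) in replicates 1, 2 and 3. Epidermis markers, 8 of 9 listed, summed to 1853, 73.4 and 396 CPM, and glia markers, 10 of 11 listed, to 762, 3767 and 483 CPM. At least 1 count was found for 12, 14 and 13 of the neuron markers, 7, 3 and 4 of the epidermis markers and 6, 9 and 7 of the glia markers in replicates 1, 2 and 3. Muscle markers summed to 239, 52.0 and 122 CPM and trachea markers to 726, 64.2 and 188 CPM. The library labelled replicate 1 thus held few neuron counts for an organ made of sensory neurons and their support cells. Whether few neurons were captured or each gave little RNA cannot be told apart in these sums.

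Ribosomal protein genes took 38.4% of the kept counts in replicate 1 (interval 38.2 to 38.5), 14.0% in replicate 2 (13.9 to 14.1) and 21.0% in replicate 3 (20.8 to 21.1). The mean was 24.4% ± 12.6 (SD, n = 3). The share in replicate 1 was 2.74 times that of replicate 2 and 1.83 times that of replicate 3, and the share in replicate 3 was 1.501 times that of replicate 2. The intervals of the libraries did not overlap, and the mean describes unlike libraries. Among the 50 genes with the most counts, 42 were ribosomal protein genes in replicate 1, 13 in replicate 2 and 21 in replicate 3.

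The difference ran through the family rather than through a few genes. Of the 84 members with at least 30 kept counts, the highest CPM lay in replicate 1 for 74, in replicate 3 for 9 and in replicate 2 for 1. That count was not made over all genes, so it has no background to be read against. Ratios between 2 libraries were taken only over genes counted in both. Of all genes with at least 30 counts these were 2956 for replicates 1 and 2, 2293 for 1 and 3 and 2715 for 2 and 3. The median member stood at a log2 CPM ratio of 1.43 for replicate 1 over replicate 2, against -0.45 over all such genes. For replicate 1 over replicate 3 the medians were 1.04 for members and -0.08 for all genes, and for replicate 2 over replicate 3 they were -0.50 and 0.45. CPM in replicate 1 was at least 2 times the mean of replicates 2 and 3 for 50 of the 84 members (59.5%), where 28.4% of 4016 genes met the same rule. By a rule in either direction, in which 1 library is at least 2 times or at most 0.5 times the mean of the others, 65 members (77.4%) and 95.1% of all genes differed. A smaller share of members than of all genes therefore differed between libraries by that rule, and most of those members were high in replicate 1. A gene without a count in 1 library meets the rule outright, and members were more often counted in every library. Members and all genes were not compared at like counts.

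The spread within a library was wide in replicate 1 and narrow in the others. Over kept barcodes the share ranged between 13.5% and 51.6% in replicate 1, with a median of 40.6% and an SD of 10.4. In replicate 2 it ranged between 9.56% and 23.2%, with a median of 14.2% and an SD of 2.07. In replicate 3 it ranged between 9.08% and 27.9%, with a median of 20.8% and an SD of 2.43. Of the 24 barcodes of replicate 1 with at least 1000 genes, 23 lay above every such barcode of replicate 2 and 23 above every such barcode of replicate 3. All but 3 of the 24 are the deepest barcodes or lie near them in sequence, so they are not 24 separate profiles. Of all 61 kept barcodes of replicate 1, 53 lay above every kept barcode of replicate 2 and 45 above every one of replicate 3. All but 28 of the 61 are the deepest barcodes or lie near them, so they are not 61 separate profiles either.

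**Figure D1:**
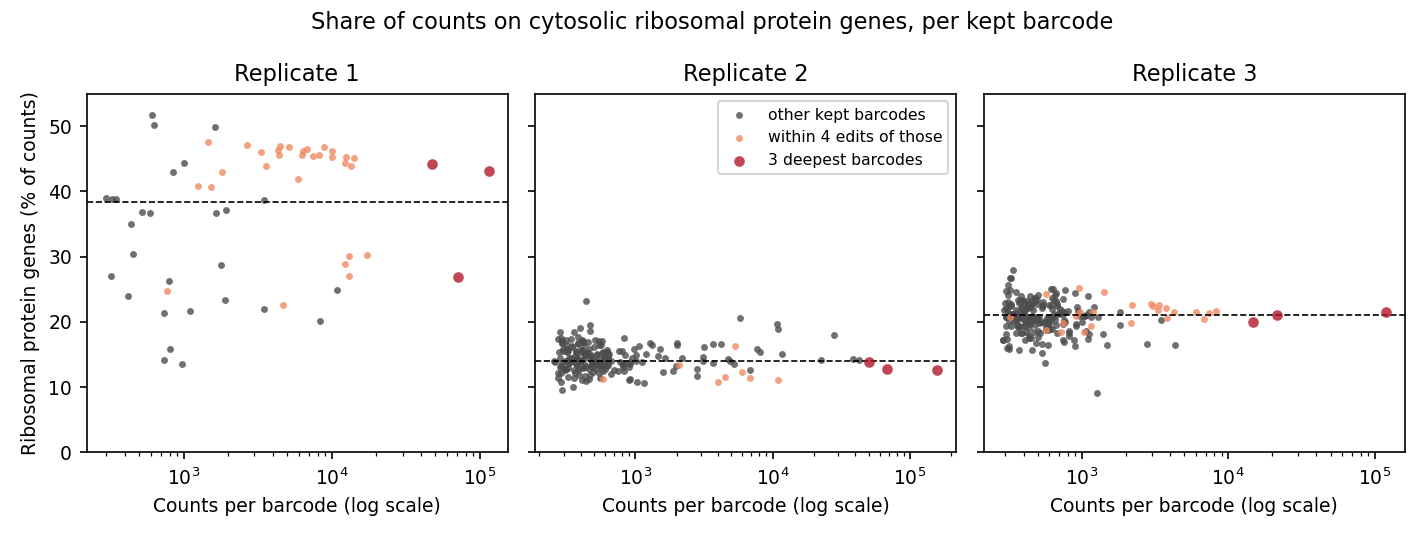
Share of a barcode's counts on cytosolic ribosomal protein genes (y axis, %) against its total counts (x axis, log scale), 1 panel per library and 1 point per kept barcode. The dashed line is the share of the summed library, at 38.4%, 14.0% and 21.0%, and replicate 1 alone splits into bands, with 2 of its 3 deepest barcodes near 44% and the other near 27%.

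The bands of replicate 1 followed its deepest barcodes. Its 3 deepest barcodes carried 43.1%, 26.9% and 44.1% of their counts on ribosomal protein genes. The barcodes whose sequence lies within 4 edits of 1 of these numbered 17, 6 and 7, and their median shares were 45.6%, 28.0% and 43.0%, so near barcodes held shares like that of the deep barcode they resemble. In the second of the 3, odorant-binding protein (Obp) genes took 17.5% of the counts, against 0.785% and 1.07% in the other two. With Obp genes left out of the total its share was 32.6%, still below 43.4% and 44.6%. In replicate 2 the 3 deepest barcodes held 12.6%, 12.8% and 13.9%, and in replicate 3 they held 21.6%, 21.1% and 20.0%. Without the 3 deepest barcodes and those near them, the share was 28.2% in replicate 1, 15.1% in replicate 2 and 20.2% in replicate 3, which keeps the order of the libraries.

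Depth classes of barcodes differed in their share in replicate 1 and by under 1 percentage point in the others. Shallow barcodes had at least 200 and under 500 genes, middle ones at least 500 and under 1000, and deep ones at least 1000. In replicate 1 the share was 29.9% in shallow, 42.0% in middle and 38.5% in deep barcodes. In replicate 2 the same classes held 14.3%, 14.2% and 13.9%. In replicate 3 they held 20.6%, 20.7% and 21.3%. Deep minus shallow barcodes gave 8.62 percentage points in replicate 1, -0.394 in replicate 2 and 0.663 in replicate 3. The mean difference was 2.96 ± 4.93 points (SD, n = 3), which did not pass a two-sided exact sign-flip permutation test (p = 0.5, where 3 libraries allow no p below 0.25). Without the deepest barcodes and those near them the mean difference was -2.50 points, over 3, 20 and 1 deep barcodes. The libraries then gave -4.52, 1.15 and -4.12 points, so the negative values rest on 3 barcodes of replicate 1 and 1 barcode of replicate 3.

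**Figure D2:**
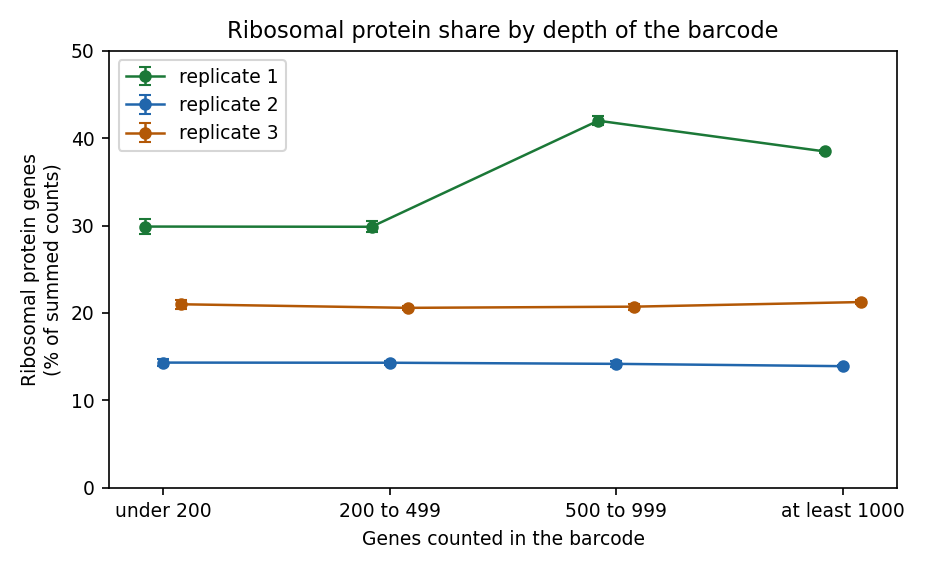
Share of summed counts on cytosolic ribosomal protein genes (y axis, %) by the number of genes counted in a barcode (x axis), 1 line per library with exact 95% intervals. Replicates 2 and 3 are flat near 14% and 21%, and replicate 1 lies higher, between 29.9% and 42.0%.

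Beyond counting error, barcodes of the same depth differed most in replicate 1. The SD of the share in deep barcodes was 17.1 times what counting alone gives in replicate 1, 5.80 times in replicate 2 and 3.42 times in replicate 3. In shallow barcodes the figures were 6.18, 1.197 and 1.34, so the shallow barcodes of replicates 2 and 3 lay close to counting error. These figures take each count as a separate molecule, and copies left uncollapsed would raise them.

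Fitted per gene with edgeR's quasi-likelihood test, with the library as a block, deep against shallow sums gave 3 changed genes of 1508 tested (0.199% at an adjusted p under 0.05). Of the members, 82 passed the filter on low counts, 0 were called, and 0 reached an unadjusted p under 0.05, where 49 of all genes did (3.25%). DESeq2 called 7 genes (0.464%), gave 3.25% of genes an unadjusted p under 0.05, and called 0 members. The median log2 fold change was 0.30 over members and 0.22 over all genes tested, and it moved to 0.13 and 0.02 with DESeq2, so single members are given relative to the family median. Those named were picked for lying on 1 side of it in every library, which is therefore no result. RpL36 had 6518, 2521 and 3103 CPM in deep sums of replicates 1, 2 and 3, against 3143, 2540 and 1925 CPM in shallow sums. Its fold change was 0.40 above the family median on the log2 scale, with an edgeR adjusted p of 0.968 (fold change 0.70, SE 0.43). RpL17, which lies around the exit of the peptide tunnel, stood lowest at -0.65 relative to the family, among the 30 members that lie on 1 side of its median in every library. It was -0.12 without the deepest and near barcodes. It had 4337, 1334 and 937 CPM in deep sums, against 4828, 1529 and 1995 CPM in shallow sums. RpS24, RpL28 and RpL35A (0.33, 0.33 and 0.30 above the median) and RpS28b and RpL24 (-0.40 and -0.38) followed, and none passed the test. Without the deepest and near barcodes RpS24 and RpL35A stood at 0.064 and 0.085, RpL24 at -0.18, and RpL36, RpL28 and RpS28b on the other side of the median.

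A barcode was placed in a marker class when at least 2 markers of that cell type were counted in it. A barcode can be in more than 1 class, and all 29 deep barcodes of replicate 2 were in both the neuron and the glia class. In replicate 1 the glia and epidermis classes held 454925 and 416092 of the 497492 kept counts. The classes are therefore not separate cell types, and their differences cannot be told apart from depth. Neuron-marker barcodes minus the other barcodes of the same library differed in direction between libraries. They held 36.4%, against 41.2% in other barcodes of replicate 1 (10 and 51 barcodes). In replicate 2 they held 14.0%, against 14.4% (155 and 59 barcodes), and in replicate 3 21.0%, against 20.7% (176 and 55 barcodes). The mean difference was -1.65 ± 2.79 points (SD, n = 3; two-sided exact sign-flip permutation p = 0.5). Neuron-marker barcodes were the deeper ones, with median counts of 13127, 624 and 591.5, against 1796, 370 and 393 in other barcodes. Within depth classes, neuron-marker barcodes of replicate 1 held 36.6%, against 42.2% in other deep barcodes (7 and 17 barcodes). Its shallow and middle classes had only 1 and 2 neuron-marker barcodes, at 23.9% and 27.4%, against 29.98% and 44.5% in the others. In the shallow class, replicates 2 and 3 differed by -0.126 and -0.104 points, and the intervals of their classes overlapped.

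Glia-marker barcodes held 38.6% in replicate 1, against 35.8% in other barcodes (32 and 29 barcodes). They held 13.9% in replicate 2, against 14.4% (85 and 129), and 21.2% in replicate 3, against 20.8% (15 and 216). They too were the deeper ones, with median counts of 8253, 1123 and 2170, against 1009, 424 and 495.5 in other barcodes. The mean difference was 0.923 ± 1.72 points (SD, n = 3; two-sided exact sign-flip permutation p = 0.75). It turned to -0.688 points when barcodes were compared within depth classes, and to -3.26 without the deepest and near barcodes. The depth classes disagreed. In replicate 1, glia-marker barcodes held 21.6%, against 31.2% in other shallow barcodes (4 and 20), but 45.01%, against 39.5% in other middle barcodes (5 and 8), and only 1 deep barcode lacked the markers. Epidermis-marker barcodes reached 5 in number only in replicate 1, where 26 of them held 38.4%, against 38.0% in the other 35, and 1 library gives no test. Their median counts were 9482.5, against 1253 in the other 35. Replicates 2 and 3 had 1 and 3 such barcodes, with shares of 12.8% and 21.5%, against 14.1% and 20.6% in their other barcodes. With at least 1 marker required, 45, 16 and 32 barcodes entered, and the differences were 0.919, -0.581 and 1.06 points in replicates 1, 2 and 3. Their mean was 0.466 ± 0.910 points (SD, n = 3; two-sided exact sign-flip permutation p = 0.5).

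**Figure D3:**
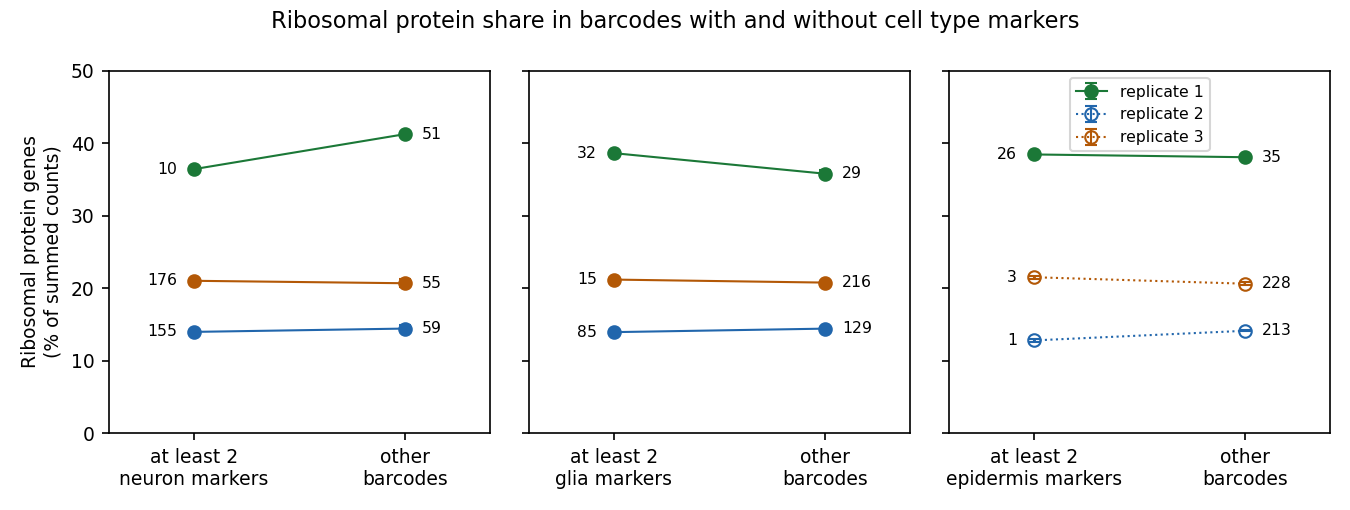
Share of summed counts on cytosolic ribosomal protein genes (y axis, %) in barcodes with at least 2 markers of a cell type and in the other barcodes (x axis), 1 line per library, with barcode numbers beside the points. Open points with dotted lines are libraries with under 5 barcodes in a class, and the lines of the libraries lie further apart than the classes within any library.

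Over all kept barcodes of a library, the Spearman correlation of a barcode's ribosomal protein share with its neuron-marker share was -0.19, -0.013 and 0.075 in replicates 1, 2 and 3 (61, 214 and 231 barcodes). For glia markers it was 0.10, -0.087 and -0.068, and for epidermis markers -0.10, 0.048 and 0.070. Barcodes of a library share its preparation, and shares of 1 total are tied to each other, so these are descriptions. The largest values were in replicate 1, where the Obp share gave -0.73 and the share of mitochondrial genome genes gave -0.74. In replicates 2 and 3 the Obp share gave 0.055 and -0.12, and the mitochondrial share -0.28 and 0.019. In deep barcodes alone the neuron share gave -0.64, -0.25 and 0.079 in replicates 1, 2 and 3 (24, 29 and 10 barcodes). In the same 24 barcodes of replicate 1 the Obp share gave -0.82 and the mitochondrial share -0.86. All but 3 of these 24 are the deepest barcodes or lie near them in sequence, as do all but 28 of the 61 kept. The correlations of replicate 1 are therefore not taken over separate profiles. The part of Obp counts in the wide spread of replicate 1 was not tested.

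In the fits by marker class, no member was called. Neuron-marker against other sums gave 0 genes of 2167 (0% called by edgeR), with 99 genes (4.57%) at an unadjusted p under 0.05. DESeq2 called 2 genes (0.0923%) and gave 1.89% an unadjusted p under 0.05. Of 83 members tested, 0 were called and 0 had an unadjusted p under 0.05. The median log2 fold change was 0.09 over members and 0.11 over all genes. Of the 18 members on 1 side of the family median in every library, the one furthest above it was RpL24-like, whose yeast counterpart Rlp24 acts in assembly of the large subunit. It had 109, 149 and 870 CPM in neuron-marker sums of replicates 1, 2 and 3, against 74.0, 0 and 460 CPM in other sums. It had a fold change of 1.24 (SE 0.66) and an edgeR adjusted p of 0.991. RpL31, RpS16 and RpS18 followed at 0.35, 0.28 and 0.28 above the family median. RpS23, a protein of the decoding centre, RpL17, RpS24 and RpL9 lay furthest below it, at -0.41, -0.41, -0.34 and -0.32.

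Glia-marker against other sums gave 7 genes of 1702 (0.411%) by edgeR and 13 (0.764%) by DESeq2, and 3.76% and 2.35% of genes had an unadjusted p under 0.05 in these tools. Of 82 members tested, 0 were called by either and 0 had an unadjusted p under 0.05 in edgeR, and the medians over members and over all genes were both 0.14. Of the 23 members on 1 side of the family median in every library, RpL28 lay furthest above it, at 0.29 (fold change 0.43, SE 0.22, edgeR adjusted p 0.976). It had 6052, 1600 and 3460 CPM in glia-marker sums, against 5145, 1175 and 2728 CPM in other sums of replicates 1, 2 and 3. RpL13A, RpS24 and RpS19a lay 0.24, 0.23 and 0.19 above, and RpL17, RpL18, RpL40 and RpL24 at -0.32, -0.24, -0.24 and -0.20. RpL40 is made as a fusion with ubiquitin. RpL17 was the lowest or second lowest by this rule in all 3 fits, which share barcodes, and passed none of them.

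The split of the family between its subunits varied less between libraries than its total. Small-subunit genes made up 41.2%, 37.9% and 37.8% of the family's counts in replicates 1, 2 and 3, or 39.0% ± 1.94 (SD, n = 3). The stalk genes made up 4.47%, 4.44% and 5.27%. Across members, the log2 shares of the family correlated at a Pearson r of 0.84 between replicates 1 and 2, 0.73 between 1 and 3 (83 members each) and 0.87 between 2 and 3 (84 members), which describes genes and not replicates. Counts were not scaled to length or to what a 3' tag captures, so orders and ratios between different genes describe counts and not levels of transcripts.

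Members with the highest mean CPM moved in different ways around the family. RpS25, in the head of the small subunit, gave CPM of 11564 in replicate 1, 2599 in replicate 2 and 5885 in replicate 3. RpLP1 of the stalk had 8513, 1994 and 4577 CPM. Both followed the total, highest in replicate 1 and lowest in replicate 2. RpL24, which forms a bridge between the subunits, had 5636, 2014 and 6088 CPM. RpL15 had 4878, 2709 and 7870 CPM, and RpL41, the smallest ribosomal protein, had 5703, 4922 and 7722 CPM. RpL24, RpL15 and RpL41 were highest in replicate 3, although the family as a whole was not.

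As a share of the family's counts, 19 of the 84 members departed between libraries, by having in 1 library at least 2 times or at most 0.5 times the mean of their shares in the other two. The outlying library was replicate 1 for 11, replicate 3 for 7 and replicate 2 for 1. In that library 9 were higher and 10 lower. No share over all genes was computed by this rule, so the 19 are not read as many or few. By the like rule on CPM given above, 77.4% of members and 95.1% of all genes differed. Shallow sums are part of the counts the 19 were chosen on, so they give no separate support. They held 6557, 10763 and 20639 of the family's 190857, 91428 and 72525 counts in replicates 1, 2 and 3. In shallow sums 13 departed in the same direction. Without the deepest and near barcodes, which leaves a part of the same counts, 12 remained. RpS14a, at 2.01 times, lay just inside the rule, and RpS18 and RpL24, at 1.998 and 1.994 times, lay just outside it.

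RpL27A showed the widest departure among members with over 1000 counts. It took 2.23%, 1.56% and 0.327% of the family in replicates 1, 2 and 3, with 4247, 1426 and 237 counts, and was low in replicate 3 in deep sums (0.333%) and shallow sums (0.300%) alike. RpS2, which lines the channel where messenger RNA enters the ribosome, took 1.404%, 0.466% and 0.423%, high in replicate 1. RpS12, which in Drosophila is needed for cells with a ribosomal protein gene deficit to be outcompeted, took 2.20%, 1.16% and 0.756%. RpL41 went the other way, at 1.49%, 3.52% and 3.68%. RpL5, which binds 5S ribosomal RNA, took 0.803%, 1.57% and 2.13%, and RpL15 took 1.27%, 1.94% and 3.75%. RpL29 was the member furthest out in replicate 2, at 0.728%, 1.39% and 0.580%.

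**Figure D4:**
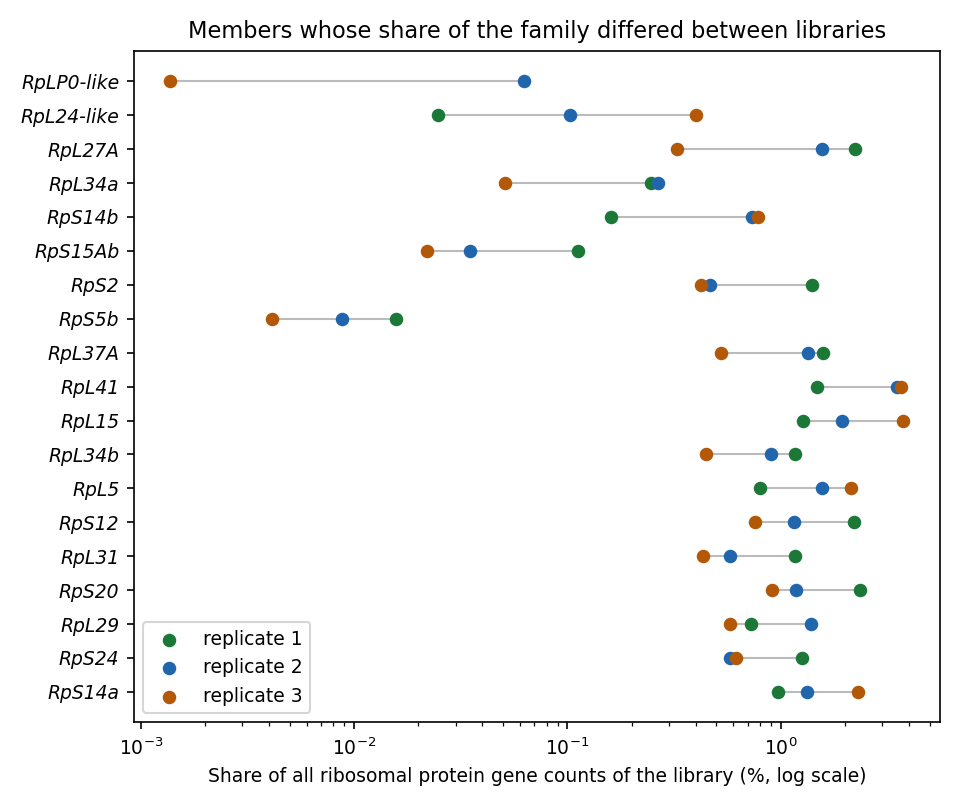
Share of all cytosolic ribosomal protein gene counts of a library (x axis, %, log scale) for the 19 members that departed between libraries (y axis), 1 point per library. RpLP0-like had no count in replicate 1 and so has 2 points, and RpL27A and RpL34a stand out by low values in replicate 3.

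Duplicated genes differed between libraries in how their counts split. RpS14a and RpS14b, neighbouring X-linked copies that encode the same protein, are 1 example. RpS14b held 14.2% of the pair in replicate 1 (interval 12.7 to 15.7), 35.6% in replicate 2 (33.5 to 37.8) and 25.3% in replicate 3 (23.5 to 27.1), and the intervals of the libraries did not overlap. In shallow sums the values were 14.3%, 33.3% and 26.6%, in the same order. RpS15Ab held 13.7%, 5.63% and 2.24% of its pair with RpS15Aa over all kept barcodes. In shallow sums it held 3.33%, 4.17% and 4.81%, in the opposite order and from 2, 2 and 9 counts. RpL34a held 17.4%, 22.8% and 10.2% of its pair with RpL34b. The rows RpL37A and RpL37a were set together only because their symbols differ in case alone, and they are not taken to be copies. The symbol RpL37a is a synonym of more than 1 gene and is not assigned here. RpL37A held 47.6%, 50.6% and 22.7% of the counts of these rows, which is not read as a split between duplicates. Reads of near-identical copies may be shared between them by the counting, which is not described, so these splits are uncertain.

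Several minor copies were nearly uncounted. RpS5b, the ovary-enriched copy of RpS5a in Drosophila, had 30, 8 and 3 counts, 2.11%, 1.05% and 0.898% of its pair. RpL22-like, enriched in the Drosophila germline, had 0, 1 and 1 counts beside 601, 243 and 132 counts of RpL22. RpL10Aa had 1 count in replicate 1 and none in the others, where RpL10Ab had 2651, 937 and 700. RpS28-like had 21 counts, all in replicate 2, beside 2993, 1696 and 1228 counts of RpS28b. These last 3, with under 30 counts in all, were left out of the count of departing members.

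The split of counts between the assembly-factor relatives and the proteins they resemble differed between libraries. RpL24-like had 47, 94 and 291 counts, which is 1.65%, 6.66% and 12.2% of its pair with RpL24 in replicates 1, 2 and 3. It was high in replicate 3 in deep sums (14.4%) and shallow sums (8.77%). RpL24 was itself highest in replicate 3, at 2.90% of the family, against 1.47% and 1.44% in replicates 1 and 2. RpLP0-like, whose yeast counterpart Mrt4 holds the place of the stalk protein P0 during assembly, had 0, 57 and 1 counts. In replicate 2 it made up 5.20% of its pair with RpLP0 (interval 3.96 to 6.68), while 0 of 1309 counts in replicate 1 allow up to 0.281%. The 57 counts of RpLP0-like lay in 19 of the 214 kept barcodes of replicate 2.

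Within a library, the make-up of the family also differed between deep barcodes. The ratio of chi-square to degrees of freedom is near 1 where barcodes differ by counting only and each count is a separate molecule. Its median over members was 3.14, 2.02 and 1.76 in replicates 1, 2 and 3. Copies left uncollapsed would raise the ratio, and whether they were collapsed is not stated. All but 3 of the 24 deep barcodes of replicate 1 are the deepest ones or lie near them in sequence. The members named here were chosen after their values were seen. RpL32 in replicate 3, a gene often used as a constant reference in Drosophila, gave 26.2. It took 0.426%, 2.16% and 0.0341% of the family in the 3 deepest barcodes of that library, the last being 1 count of 2936. RpS27 and RpL26 were highest in the same second barcode, at 3.28% and 2.20%, against 1.17% and 0.750% in the first. RpL23 and RpL21 varied most in replicate 1, at 15.9 and 15.1, where RpL21 took 1.13%, 0.695% and 2.37% in its 3 deepest barcodes. In replicate 2 the widest was RpS5a, at 4.71.

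**Figure D5:**
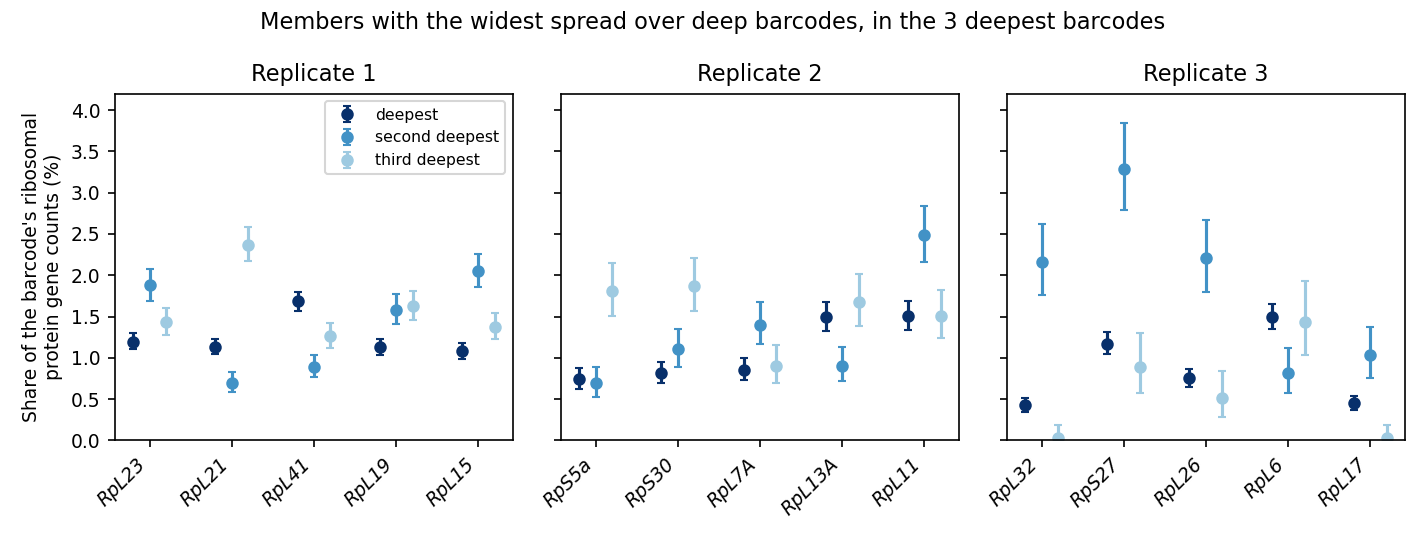
Share of a barcode's cytosolic ribosomal protein gene counts (y axis, %) for the 5 members with the widest spread over deep barcodes of each library (x axis), in its 3 deepest barcodes, with exact 95% intervals. The second barcode of replicate 3 stands above the others for RpL32, RpS27, RpL26 and RpL17.

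Other genes of protein synthesis did not all follow the family. The 32 translation factor genes took 2.31%, 1.06% and 1.13% of counts in replicates 1, 2 and 3, highest in replicate 1 like the ribosomal protein genes. The 13 genes listed for ribosome biogenesis together took 0.175%, 0.0433% and 0.0544%, also highest in replicate 1. Nlp alone had 1039 CPM there, the largest value of the list, against 133 and 0 CPM in replicates 2 and 3. Whether Nlp acts in ribosome biogenesis was not checked, so the total is not read as a result on that process. Fib, Nnp-1, Nop60B and nop5 were also highest in replicate 1, and the other genes of this list were not. The 72 mitochondrial ribosomal protein genes took 0.383%, 0.506% and 0.561%, lowest in replicate 1. Growth control genes (6, with Tor, S6k and the Myc gene dm) took 0.0243%, 0.0610% and 0.0758%. The ribosomal proteins under other symbols moved differently, with sta (RpSA) at 0.315%, 0.0899% and 0.161% and Rack1 at 0.232%, 0.176% and 0.317%. Mitochondrial genome genes took 1.87%, 3.89% and 1.69%. Of these lists, 20, 1, 19 and 3 genes of the first 4 and 15 mitochondrial genome genes were tested by depth, and edgeR and DESeq2 called 0 of each there and in the neuron and glia fits. At an unadjusted p under 0.05 edgeR gave 0 of them by depth, 1 mitochondrial genome and 1 mitochondrial ribosomal protein gene by neuron markers, and 1 growth control gene by glia markers.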

How the data were processed

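The authors' deposited tables hold raw whole-number counts, by gene symbol and by a barcode of 12 bases, as their values show. STAR 2.7.0 and Seurat 3.1.2 are named in the submitters' processing notes. The build, annotation, counter, strand and collapsing of copies are not given in the sources used here, so no coordinates are printed. Members and lists were chosen with earlier results of these data known.

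Kept barcodes had at least 200 genes. Shares are sums over barcodes with Clopper-Pearson intervals (scipy 1.17.1), and CPM scales kept counts to 1000000. Fits used R 4.3.3 and edgeR 4.0.16 (glmQLFit and glmQLFTest after filterByExpr and TMM, library block, Benjamini-Hochberg over all genes tested) on sums per library and class, checked on simulated data, with DESeq2 1.42.0 as an alternative. The block pairs 2 sums of 1 suspension. Scrublet (scanpy 1.11.5) called 22, 21 and 22 barcodes doublets, which were kept. Alternatives changed the filters, markers, scaling and barcodes. Genes named are the 6 with the highest mean CPM, all copies, the departing members and, per fit, the 4 furthest above and below the family median in the same direction in each library. Some genes that this rule names are not reported here. Symbols of 86 members were current in the RefSeq table.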

Additional observations from a re-analysis of the deposited data

Results flagged for a closer look

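Barcodes with under 200 genes were left out of every comparison, and they carried ribosomal protein counts too. The share in their summed counts was 29.9% in replicate 1 (interval 29.0 to 30.8, 201 barcodes with counts), 14.3% in replicate 2 (14.0 to 14.7, 287 barcodes) and 21.0% in replicate 3 (20.5 to 21.5, 229 barcodes). There are no control samples to set these against. Shallow barcodes, with at least 200 and under 500 genes, of the same libraries held 29.9%, 14.3% and 20.6%.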

How the results depend on the processing

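The mean share of counts ran between 17.5% and 29.7% when 1 library was left out. The other settings moved it by less than the SD between libraries, 12.6 points, a limit too wide to show stability. Without the deepest and near barcodes the mean was 21.2% ± 6.59 (SD, n = 3), and replicate 1 fell to 28.2% from 38.4%. The 3 library-level differences and the epidermis value did not keep their sign, and the cause was not tested. Deep minus shallow turned to -2.50 points without the deepest and near barcodes (0.135 to 4.64 with 1 library left out). Neuron-marker minus other turned to 1.31 with classes called on counts thinned to 395, which left out 125 barcodes (-2.65 to -0.0594 leaving out 1 library). It was -0.0433 without deepest and near barcodes and -0.410 without doublets, each over 2 libraries, and -2.72 within depth classes. Glia-marker minus other turned to -1.39 without Scrublet doublets, -3.26 without deepest and near barcodes, -2.60 with at least 3 markers, -0.688 within depth classes and -1.75 on thinned counts (-0.0337 to 1.63 leaving out 1 library, the lowest without replicate 1). The epidermis value of replicate 1, 0.382, became 0.981 with at least 100 genes, 1.67 as a mean over barcodes, -0.478 with at least 300 genes, -2.19 without doublets, -0.877 without deepest and near barcodes, -0.0402 without mitochondrial counts, -1.86 with at least 3 markers and -1.43 within depth classes.

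Genes called by depth numbered 3, and 7 with DESeq2, 12 with its size factors in edgeR, 0 without the replicate block, 0 without deepest and near barcodes and 1 to 26 leaving out 1 library (26 without replicate 1). By neuron markers they numbered 0, and 2 with DESeq2, 3 with its size factors, 0 without the block, 13 with at least 3 markers and 0 to 3 leaving out 1 library. By glia markers they numbered 7, and 13 with DESeq2, 19 with its size factors, 16 with TMM and library size taken without the members, 0 without the block, 0 without deepest and near barcodes, 3 with at least 1 marker, 20 with at least 3 and 0 to 14 leaving out 1 library (14 without replicate 1, 0 without replicate 2). The count of members at an unadjusted p under 0.05 was 0 in each main edgeR fit. By glia markers it was 16 of 83 without replicate 3 (90 of 3205 genes) and 28 of 87 with no filter (285 of 10269 genes). By depth it was 11 of 87 with no filter (239 of 10020 genes). By neuron markers it was 9 of 87 with no filter (467 of 10265 genes) and 7 of 81 without replicate 1 (149 of 2240 genes). It was 4 of 83 by neuron markers with TMM and library size taken without the members (176 of 2167 genes). In each of these fits 0 members were called, and the lowest adjusted p of a member was 0.438, in the glia fit without replicate 3.

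Relative to the family median, RpL17 by depth was -0.36 without replicate 3. Without deepest and near barcodes, RpL36 became -0.087, RpL28 -0.27 and RpS28b 0.23 by depth, and RpL28 -0.34, RpS24 -0.20 and RpL18 0.027 by glia markers, where RpS24 was -0.0039 with at least 3 markers. RpS24 was 0.065 by neurons with at least 1 marker. RpS5b in replicate 3 over the others turned to 0.72 (log2) without deepest and near barcodes, from 7 counts in all. Planned settings that gave no value were the extended family, since no row held an older symbol of a member, epidermis classes on thinned counts and the epidermis value without replicate 1. The alternatives with sta and Rack1, and without Obp genes, were chosen after seeing the data. Depth limits the smaller sums, which held 21956 counts in shallow barcodes of replicate 1 and 23295 and 23915 counts in barcodes without neuron markers of replicates 2 and 3.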
